A study of Homo sapiens with 27 samples.

Results

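The mitochondrial ribosomal protein genes were taken as every gene symbol made of MRPL or MRPS and a number, with or without a closing letter A to C. This gave 77 of the 26255 gene symbols in the files, of which 48 were MRPL and 29 MRPS symbols. The 2 series of symbols name large and small subunit proteins, with exceptions: MRPS30 and MRPS18A sit in the large subunit. Counts and shares below go by symbol. 4 further symbols that begin with the same letters, namely MRPL23-AS1, MRPL42P5, MRPL45P2 and MRPS31P5, are an antisense transcript and pseudogenes and were not counted. The symbols are those of the files: MRPS36 is now named KGD4 and described as a subunit of the 2-oxoglutarate dehydrogenase complex, and it was kept because the symbol matched.

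Bulk RNA of 3 established human colorectal cancer (CRC) lines, HCT116, SW480 and DLD-1, was sequenced in 27 libraries, 3 for each of 9 groups. In each line, 5-FU res cells had been kept with fluorouracil, a pyrimidine analogue that blocks thymidylate synthesis, between 5 and 70 µM. OX res cells had been kept with oxaliplatin, a platinum drug that binds DNA, between 5 and 35 µM, both for about 6 months, and WT cells of the same line were labelled as the negative control. The methods describe stepwise selection for HCT116 and SW480 only, and no source used here says whether a resistant population is 1 clone or whether the 3 libraries of a group are separate cultures, so p-values measure the spread between these libraries.

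Mitochondria keep their own ribosome, which translates the few messenger RNAs of mitochondrial DNA into core subunits of the respiratory chain. Its RNAs are made inside the organelle, while all of its proteins are encoded in the nucleus, translated in the cytosol and imported. Some of these proteins have bacterial counterparts and others were added during the evolution of mitochondria. In cultured tumour cells, loss of mitochondrial translation lowers the assembly of respiratory complexes.

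The files gave FPKM, and each library was rescaled to TPM (transcript abundance as a share of the library, each gene's FPKM divided by the library's sum). The groups differed in how TPM was spread over genes. The median gene was higher in resistant cells on plain TPM by 0.18 and 0.60 (log2) in 5-FU res and OX res cells of HCT116 and by 0.44 and 0.36 in those of SW480, and shifted by -0.03 in DLD-1 5-FU res and 0.13 in DLD-1 OX res cells. Fold changes are therefore given as log2 relative to the median gene, on log2(TPM + 1), and counts and medians on plain TPM stand beside them. A gene was called at an adjusted p under 0.05 from limma, adjusted over all genes tested. The call (higher, lower or none) was another on plain TPM for 6 and 25 of the 77 genes in 5-FU res and OX res cells of HCT116, 20 and 28 in those of SW480 and 4 and 31 in those of DLD-1. Library sums of FPKM also moved with the groups: they were 451767 to 630176 in resistant HCT116 and SW480 cells, 680346 to 804635 in WT cells of these lines, and 455221 to 540268 in DLD-1 cells. The part of these sums in the results was not tested.

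EPCAM, KRT8, KRT18 and KRT19, markers of colorectal epithelium, were at 65.6 TPM or more in every library, and VIL1 had a median under 1 TPM in 6 of the 9 groups. Single epithelial markers, EPCAM among them, were lower in some resistant groups and higher in others. EPCAM had a median of 68.3 TPM in HCT116 OX res cells, against 391 TPM in HCT116 WT cells, and of 106 and 217 TPM in 5-FU res and OX res cells of SW480, against 326 TPM in SW480 WT cells. CDH1, the epithelial cadherin, had 22.1 and 3.6 TPM in 5-FU res and OX res cells of HCT116, against 29.6 TPM in WT cells, and 3.24 and 2.96 TPM in those of SW480, against 17.1 TPM in WT cells. CDX2, an intestinal transcription factor, had 5.68 and 29.8 TPM in those of SW480, against 44.5 TPM in WT cells, and 91.0 and 114 TPM in those of DLD-1, against 193 TPM in WT cells. Other medians rose. EPCAM had 488 TPM in HCT116 5-FU res and 892 TPM in DLD-1 OX res cells, against 391 and 789 TPM in WT cells. In DLD-1 OX res cells KRT8 had 9983 TPM and KRT18 7225 TPM, against 4688 and 3106 TPM in WT cells. CDX2 had 17.5 TPM in HCT116 OX res cells, against 15.3 TPM in WT cells. The sum of the 7 epithelial markers was 7505 to 8066 TPM in 5-FU res and 5702 to 6116 TPM in OX res cells of HCT116, against 6823 to 7036 TPM in WT cells, 8727 to 9030.4 TPM and 10374 to 11166 TPM in those of SW480, against 8770.4 to 9198 TPM in WT cells, and 9423 to 10253 TPM and 19393 to 20960 TPM in those of DLD-1, against 9589 to 9929 TPM in WT cells. Among markers of other cell types, the sum of 5 leukocyte genes was 57.6 to 70.8 TPM in HCT116 OX res cells, against 17.9 to 19.0 TPM in HCT116 WT cells, and 24.5 to 28.2 TPM and 22.1 to 25.7 TPM in 5-FU res and OX res cells of SW480, against 7.19 to 8.40 TPM in SW480 WT cells. Most of it was CD68, a lysosomal protein that is also made outside the leukocyte lineage, while PTPRC, which defines leukocytes, was at 0.116 TPM or less in every library. 6 fibroblast genes summed to 15.4 to 17.8 TPM in HCT116 OX res cells, against 6.26 to 7.003 TPM in HCT116 WT cells. In SW480 5-FU res cells they summed to 4.94 to 5.45 TPM, against 1.01 to 1.46 TPM in SW480 WT cells. Most of the HCT116 sum was COL1A1, at 14.9 to 17.6 TPM in OX res cells, against 6.08 to 6.84 TPM in WT cells. In SW480 5-FU res cells COL1A1 had 2.72 to 2.95 TPM, against 0.869 to 1.20 TPM in WT cells. PDGFRB had 1.74 to 2.15 TPM there, against 0.137 to 0.258 TPM in WT cells. COL1A2 and DCN were at 0.223 TPM or less throughout, and COL3A1 and LUM at 0.335 TPM or less. 4 endothelial genes summed to 2.09 TPM or less, with PECAM1 at 0.109 TPM or less. Their sum was 1.55 to 2.09 TPM in DLD-1 OX res cells, mostly VWF, against 0.249 to 0.317 TPM in DLD-1 WT cells. It was 0.456 to 0.829 TPM in HCT116 OX res cells, against 0.101 to 0.196 TPM in HCT116 WT cells. In SW480 5-FU res cells it was 0.513 to 0.587 TPM, against 0.376 to 0.481 TPM in SW480 WT cells. The other resistant groups overlapped their WT range. The part of these markers in the results was not tested.

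All 77 genes were expressed and tested in every line, with no value under 9.06 TPM in any library. Their mean over WT libraries ran between 20.9 and 496 TPM with a median of 108 TPM, against a median of 17.1 TPM over all genes at 1 TPM or more. The most abundant were MRPL51, a mitochondria-specific large subunit protein, at 496 TPM, MRPS6 at 391 TPM, and MRPL12, the stalk protein that recruits translation factors, at 369 TPM. The least abundant were MRPL22, which lines the exit tunnel, at 20.9 TPM, MRPS14 at 21.8 TPM and MRPL19 at 23.6 TPM. Annotated exons of 31 of the 77 genes overlap those of another gene, among them MRPL12, MRPS25, MRPS6 and MRPL46 on the same strand and MRPL3, MRPL20, MRPS22, MRPS34 and MRPS11 on the opposite one, so their values are uncertain to that extent.

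Added over all 77 genes, the level was lower in both resistant populations of HCT116 and SW480 than in their WT cells, and close to WT in DLD-1. It came to 6044, 6353 and 6177 TPM in HCT116 5-FU res cells and 7579, 7498 and 7178 TPM in HCT116 OX res cells, against 10183, 10305 and 9957 TPM in HCT116 WT cells. In SW480 it was 8574, 8499 and 8417 TPM in 5-FU res cells and 8673, 8589 and 8688 TPM in OX res cells, against 11171, 11285 and 11056 TPM in WT cells. No resistant library of these lines reached its WT range. In DLD-1 the sums were 7671, 7747 and 7165 TPM in 5-FU res cells and 8377, 7768 and 7775 TPM in OX res cells, against 7619.9, 7688 and 7715 TPM in WT cells. There the 5-FU res libraries spanned the WT values, and the OX res libraries lay just above them.

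Relative to the median gene, the sums were lower than WT in resistant HCT116 and SW480 cells and close to WT in DLD-1. The ratio of resistant to WT means was 0.543 for 5-FU res and 0.524 for OX res cells of HCT116, and 0.583 and 0.608 for those of SW480. It was 0.950 for OX res cells of DLD-1, and 5-FU res cells of DLD-1 averaged 7319 ± 101. On this scale DLD-1 WT cells averaged 7322 ± 102 (SD, n = 3), beside 6572 to 8439 in the 4 resistant groups of HCT116 and SW480 and 12539 and 13890 in HCT116 and SW480 WT cells. MRPL genes held 65.4% ± 0.290 of the summed TPM in HCT116 5-FU res cells and 66.5% ± 0.295 in HCT116 WT cells, and 60.7% ± 0.0891 in SW480 5-FU res cells and 61.3% ± 0.468 in SW480 WT cells (SD, n = 3 each), and the shares stayed within 2 points of WT. These are bulk libraries, in which fewer cells with these transcripts and less of them per cell cannot be told apart.

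**Figure D1:**
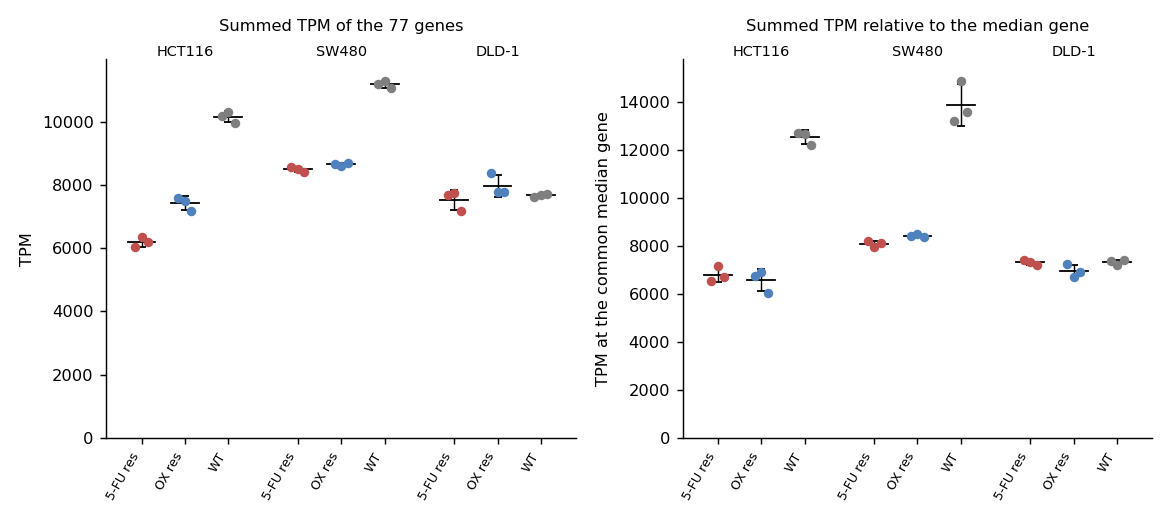
Summed level of the 77 mitochondrial ribosomal protein genes in each of the 27 libraries, as TPM (left) and relative to the median gene (right), with the mean and SD of 3 libraries a group. Resistant HCT116 and SW480 libraries lie at 6044 to 8688 TPM, all below the 9957 to 11285 TPM of their WT libraries, while DLD-1 libraries lie at 7165 to 8377 TPM in all 3 groups.

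In HCT116 5-FU res cells, 75 of the 77 genes were lower than in WT cells and 1 was higher, with a median of -0.94. Over all 14010 genes tested, 39.1% were lower and 36.0% higher, and the median was -0.03. 30 of the 77 were beyond 1 log2 unit down, against a background of 6.79%. That count was 13 on plain TPM (535 of all 14010 genes). It was 9 with the trend on transcript length removed (642 of 13562 genes). On plain TPM, where 27.5% of all genes were lower and 47.3% higher, 70 were lower and 2 higher with a median of -0.73. With the trend on transcript length removed in each library, 69 were lower and 2 higher (38.2% and 35.1% of all genes) with a median of -0.58. MRPS10 was the gene not called, at -0.09 ± 0.06 (SE, adjusted p = 0.2).

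In HCT116 OX res cells, 75 of the 77 were lower and none higher (38.2% and 39.5% of all genes), with a median of -0.88 and 30 genes beyond 1 log2 unit down (background 12.5%). MRPS10 and MRPS14 were not called. On plain TPM 52 were lower and 5 higher, with a median of -0.30, while 18.1% of all genes were lower and 68.1% higher. With the length trend removed 69 were lower and 2 higher (38.6% and 39.9%). Genes beyond 1 log2 unit down numbered 7 on plain TPM (676 of all 14010 genes) and 16 with the length trend removed (1421 of 13562).

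MRPL11 and MRPL12, of the factor-binding stalk of the large subunit, had the 2 lowest folds in HCT116 OX res cells. MRPL11, at the base of the stalk, had 51.9, 47.3 and 46.9 TPM in HCT116 5-FU res cells and 43.7, 36.9 and 42.5 TPM in HCT116 OX res cells, against 122, 123 and 118 TPM in HCT116 WT cells. Its fold was -1.51 ± 0.06 (SE, adjusted p = 4.7e-09) in 5-FU res and -2.11 ± 0.06 (SE, adjusted p = 1.3e-10) in OX res cells. MRPL12, the flexible stalk protein that is also reported to bind the mitochondrial RNA polymerase, had 279, 269 and 249.6 TPM in HCT116 5-FU res cells and 211, 193 and 203 TPM in HCT116 OX res cells, against 541, 514 and 487 TPM in HCT116 WT cells. The fold of MRPL12 was -1.16 ± 0.06 (SE, adjusted p = 5.1e-08) in 5-FU res and -1.91 ± 0.06 (SE, adjusted p = 4.6e-10) in OX res cells. In both genes every resistant library was below every WT library, and the OX res libraries were lowest. MRPL10, which tethers MRPL12, moved less, with 86.8, 86.9 and 81.1 TPM in HCT116 5-FU res cells and 114, 113 and 106 TPM in HCT116 OX res cells, against 124, 115 and 126 TPM in HCT116 WT cells and folds of -0.72 and -0.71, both called.

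MRPS genes were lower as well. MRPS34, a mitochondria-specific small subunit protein, had 106, 106 and 105 TPM in HCT116 5-FU res cells and 124, 105 and 119 TPM in HCT116 OX res cells, against 276, 266 and 254 TPM in HCT116 WT cells. Its fold was -1.53 ± 0.06 (SE, adjusted p = 4.3e-09) in 5-FU res and -1.76 ± 0.06 (SE, adjusted p = 4e-10) in OX res cells. MRPS12, the protein of the decoding centre, had folds of -1.26 ± 0.06 (SE, adjusted p = 1.5e-08) and -1.31 ± 0.06 (SE, adjusted p = 3.6e-09). MRPS24, which binds messenger RNA at the entry channel, fell by 1.41 in 5-FU res and by 1.65 in OX res cells; a readthrough transcript with a neighbouring gene is annotated for it.

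MRPS25, a mitochondria-specific small subunit protein, was the exception in HCT116 5-FU res cells. It had 36.1, 31.4 and 33.8 TPM in HCT116 5-FU res cells and 17.9, 17.2 and 18.1 TPM in HCT116 OX res cells, against 19.96, 21.4 and 19.8 TPM in HCT116 WT cells. All 5-FU res libraries lay above all WT libraries and the OX res libraries below them, and the folds were 0.49 ± 0.06 (SE, adjusted p = 1.7e-05) and -0.77 ± 0.06 (SE, adjusted p = 3.3e-07). On plain TPM they were 0.70 and -0.19. MRPL39 fell to 33.4, 36.8 and 33.8 TPM in 5-FU res cells and 66.1, 69.7 and 61.3 TPM in OX res cells, against 83.4, 85.1 and 83 TPM in WT cells, with folds of -1.46 and -0.92.

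**Figure D2:**
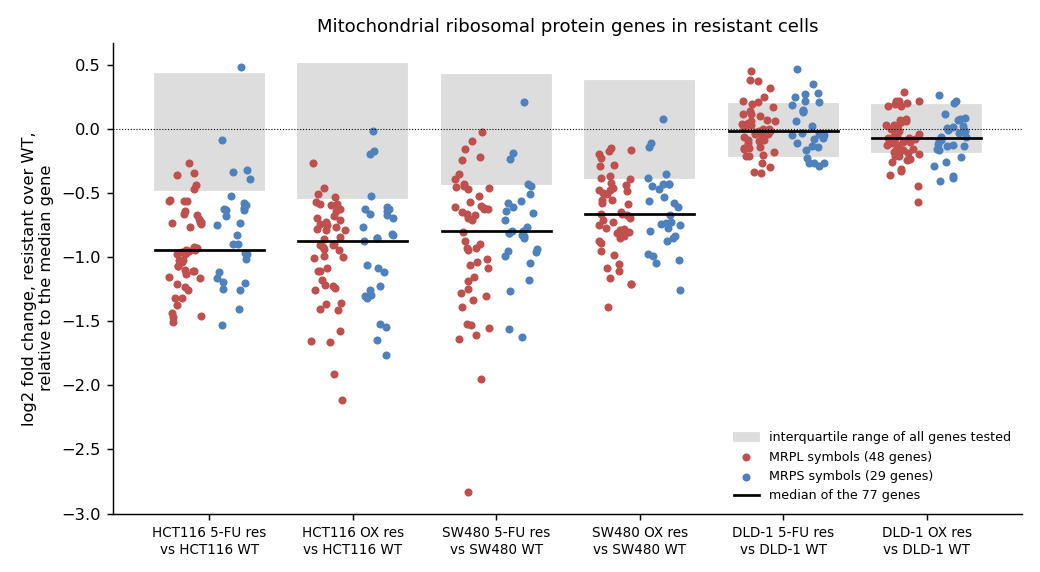
Log2 fold change of each of the 77 genes, resistant over WT and relative to the median gene, in the 6 comparisons, with MRPL genes in red, MRPS genes in blue, the median of the 77 as a black line and the interquartile range of all genes tested in grey. The medians are -0.94, -0.88, -0.79 and -0.66 in HCT116 and SW480 and -0.02 and -0.07 in DLD-1, and the lowest point is MRPL3 in SW480 5-FU res cells at -2.83.

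In SW480 5-FU res cells 71 genes were lower and 1 higher (34.7% and 34.5% of 14039 genes), with a median of -0.79 and 23 beyond 1 log2 unit down (background 7.44%). On plain TPM the split was 55 lower and 7 higher with a median of -0.36 (15.6% and 61.7% of all genes), and with the length trend removed 68 lower and 2 higher (35.5% and 35.3%). MRPL34, MRPL41, MRPL46, MRPL55 and MRPS36 were not called. In SW480 OX res cells 71 were lower and none higher (34.2% and 33.0%), with a median of -0.66 and 10 beyond 1 log2 unit down (background 3.85%). On plain TPM 48 were lower and 5 higher with a median of -0.29 (14.5% and 57.4%), and with the length trend removed 58 were lower and 2 higher (33.1% and 31.0%). MRPL41, MRPL46, MRPL50, MRPS10, MRPS11 and MRPS30 were not called.

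MRPL3, a core protein of the large subunit next to the catalytic centre, had the lowest fold of any of the 77 genes in any of these comparisons. It had 39.1, 45.4 and 42.7 TPM in SW480 5-FU res cells and 149, 131 and 147 TPM in SW480 OX res cells, against 248, 205 and 232 TPM in SW480 WT cells. The 5-FU res libraries were below every other library of the series, and the folds were -2.83 ± 0.06 (SE, adjusted p = 1.7e-10) in 5-FU res and -1.05 ± 0.06 (SE, adjusted p = 2.8e-07) in OX res cells. In HCT116 the folds of MRPL3 were -0.36 and -1.25, and the HCT116 5-FU res value was -0.02 with the length trend removed and 0.09 after quantile normalization. MRPL24 at the tunnel exit had 54.6, 53.2 and 45 TPM in SW480 5-FU res cells and 99.6, 99.1 and 96.9 TPM in SW480 OX res cells, against 147, 154 and 141 TPM in SW480 WT cells. Its folds were -1.95 ± 0.08 (SE, adjusted p = 1.3e-08) and -0.95 ± 0.08 (SE, adjusted p = 4.4e-06). MRPL1, the protein of the stalk through which transfer RNA leaves, had 25.5, 25 and 25.2 TPM in SW480 5-FU res cells and 42.4, 42.5 and 45.7 TPM in SW480 OX res cells, against 65, 53.8 and 59.6 TPM in SW480 WT cells, with folds of -1.64 ± 0.05 (SE, adjusted p = 1.5e-09) and -0.81 ± 0.05 (SE, adjusted p = 4.7e-07). In both genes the 5-FU res libraries lay below the OX res libraries, and those below the WT libraries.

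The falls in SW480 OX res cells were led by MRPL23, another protein of the tunnel rim, with 89, 92.5 and 87.1 TPM in SW480 OX res cells, against 181, 200.03 and 166 TPM in SW480 WT cells and a fold of -1.39 ± 0.10 (SE, adjusted p = 1.1e-06). MRPS24 followed with 196, 205 and 198 TPM in SW480 OX res cells, against 367, 392 and 347 TPM in SW480 WT cells and -1.25 ± 0.08 (SE, adjusted p = 4e-07). MRPL12 had 229.9, 245 and 223 TPM in SW480 OX res cells, against 396, 445 and 405 TPM in SW480 WT cells and -1.21 ± 0.09 (SE, adjusted p = 1.1e-06). In none of these 3 genes did the OX res group overlap the WT group. MRPL11, MRPL12, MRPL20 and MRPL23 were the 4 genes lower by more than 1 log2 unit in both resistant populations of both HCT116 and SW480, relative to the median gene. The share of all genes that met this joint rule was not counted. In SW480 OX res cells 1 of the 77 was beyond 1 log2 unit down on plain TPM (171 of all 14039 genes). The number was also 1 after quantile normalization (547 of 14039 genes) and with the length trend removed (389 of 13598 genes). With 1 library left out, MRPL20 and MRPL23 came to -0.94 and -0.96 at the least in HCT116 5-FU res cells. MRPL20, whose bacterial counterpart acts early in large subunit assembly, had 140.5, 176 and 154 TPM in HCT116 5-FU res cells and 197, 179.6 and 166 TPM in HCT116 OX res cells, against 271, 289.6 and 265 TPM in HCT116 WT cells. In SW480 MRPL20 had 197, 194 and 193 TPM in SW480 5-FU res cells and 209.5, 197 and 209.7 TPM in SW480 OX res cells, against 344, 346 and 338 TPM in SW480 WT cells. Its 4 folds were -1.02, -1.18, -1.25 and -1.11, first for 5-FU res and OX res cells of HCT116 and then for those of SW480.

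Counted over genes, 66 of the 77 were called lower in all 4 comparisons of HCT116 and SW480, where 14.1% of the 12824 genes tested in both lines were, and 75 had a fold below 0 in all 4, against 23.3%. On plain TPM 34 of the 77 were called lower in all 4. The share of all genes lower in all 4 was not counted on plain TPM. In the single comparisons it was 27.5% and 18.1% in HCT116 and 15.6% and 14.5% in SW480. The 2 comparisons of a line share its WT libraries. 19 of the 66 were called in neither DLD-1 comparison, a rule for which no share of all genes was counted. 7 genes, MRPL1, MRPL16, MRPL20, MRPL24, MRPL30, MRPL32 and MRPS35, were called lower in all 6 comparisons, against 1.20% of the 12114 genes tested in all 3 lines. On plain TPM MRPL20 and MRPL24 were, and MRPL1, MRPL16, MRPL30, MRPL32 and MRPS35 were not. The share of all genes was not counted for all 6 on plain TPM either. Of the 7, MRPS35 was the one whose plain TPM folds were above 0 in SW480, at 0.01 with 5-FU and 0.02 with OX, and quantile normalization gave 0.01 in HCT116 5-FU res cells.

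Promoters of 4 genes are shown because these genes moved the same way in HCT116 and SW480 and differ in the motifs they hold. MRPL20 and MRPL1 were called lower in all 6 comparisons, and MRPS34 was among the 3 largest falls in both resistant populations of HCT116 and MRPL12 in OX res cells. Each sequence is the 150 bases before the RefSeq start, 5′ to 3′ on the strand of the gene (RefSeq, GRCh38.p14), found unchanged in hg19 at chr1:1342674-1342823 (MRPL20, minus strand), chr4:78783834-78783983 (MRPL1, plus strand), chr17:79670247-79670396 (MRPL12, plus strand) and chr16:1823136-1823285 (MRPS34, minus strand). Capitals mark CCGGAAG, the core bound by ETS factors, or GGGCGG, the GC box, on either strand:
MRPL20: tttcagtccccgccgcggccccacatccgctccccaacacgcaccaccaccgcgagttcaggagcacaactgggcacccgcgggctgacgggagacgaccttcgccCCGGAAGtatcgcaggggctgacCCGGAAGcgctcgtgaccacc
MRPL1: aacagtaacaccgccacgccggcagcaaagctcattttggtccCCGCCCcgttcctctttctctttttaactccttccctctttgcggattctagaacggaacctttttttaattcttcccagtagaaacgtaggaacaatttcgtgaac
MRPL12: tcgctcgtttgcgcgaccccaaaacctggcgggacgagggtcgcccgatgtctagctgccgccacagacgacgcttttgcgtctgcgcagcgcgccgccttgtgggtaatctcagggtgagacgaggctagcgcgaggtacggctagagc
MRPS34: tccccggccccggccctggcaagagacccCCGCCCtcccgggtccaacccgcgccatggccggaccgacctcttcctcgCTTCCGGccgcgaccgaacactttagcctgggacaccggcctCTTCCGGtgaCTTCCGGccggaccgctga

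5 motifs were searched on both strands in the RefSeq promoters, each 250 bases before to 50 after the start, of the 68 genes that had one. CCGGAAG was in 28 of them (41.2%), against 17.5% of the promoters of genes tested in these fits and 10.7% of all promoters. AAGATGGC, a core bound by YY1, was in 20 (29.4%), against 4.94% and 3.03%. GGGCGG was in 41 (60.3%), against 67.8% and 44.6%, CACGTG, the E-box, in 6 (8.82%), against 9.74% and 7.43%, and the NRF-1 core in 1 (1.47%), against 2.13% and 1.36%. No motif letters overlap between CCGGAAG and GGGCGG in the sequences shown. Medians of the folds with and without a motif are given as a description. In HCT116 5-FU res cells the median was -0.92 for the 28 genes with CCGGAAG and -0.96 for the 40 without, and in SW480 5-FU res cells it was -0.78 and -0.71. For AAGATGGC the medians were -1.09 with and -0.91 without in HCT116 5-FU res cells, and -0.69 and -0.80 in SW480 5-FU res cells. A match is a run of letters, not a shown binding site.

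MRPL46 and MRPS11 are a pair that starts back to back, with 62 bases between the starts in the GENCODE annotation. Their folds are set side by side. MRPL46 had 37, 41.3 and 38.9 TPM in HCT116 5-FU res cells and 76.7, 72.7 and 76.6 TPM in HCT116 OX res cells, against 72.6, 78.2 and 77.1 TPM in HCT116 WT cells. MRPS11 had 22.4, 20.4 and 20.1 TPM in HCT116 5-FU res cells and 35.5, 33.6 and 33.7 TPM in HCT116 OX res cells, against 42, 42.5 and 43.2 TPM in HCT116 WT cells. Both were called lower in HCT116, at -1.15 and -1.20 in 5-FU res and -0.58 and -0.88 in OX res cells. On plain TPM the OX res fold of MRPL46 was -0.01, and its groups overlapped. In SW480 5-FU res cells MRPS11 was the 1 gene called higher, at 0.21 ± 0.09 (SE, adjusted p = 0.049), with 76.2, 84.2 and 82.4 TPM in SW480 5-FU res cells, against 47.6, 54.5 and 52 TPM in SW480 WT cells. No gene was called higher in these cells without WT replicate 1, without WT replicate 3, without 5-FU res replicate 2 or without 5-FU res replicate 3, where that count fell to 0. MRPL46 was at -0.02. The neighbours of the pair had a median of 0.73 there. RefSeq places the 2 starts at other positions than GENCODE. The 150 bases before the RefSeq start are chr15:89010620-89010769 for MRPL46 and chr15:89010789-89010938 for MRPS11 (hg19). The RefSeq promoter of MRPL46 holds AAGATGGC, and that of MRPS11 holds none of the 5 motifs. The stretch between the 2 GENCODE starts, at chr15:89010622-89010683 (hg19, plus strand), holds none of the motifs searched here:
MRPL46 to MRPS11: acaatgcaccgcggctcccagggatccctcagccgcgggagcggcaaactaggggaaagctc

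In DLD-1 the 77 genes moved little and in both directions. 19 were higher and 17 lower in 5-FU res cells (24.9% and 25.4% of 13467 genes), with a median of -0.02. OX res cells had 10 genes higher and 25 lower (24.2% and 22.2%), with a median of -0.07. On plain TPM the DLD-1 OX res split turned to 24 higher and 8 lower with a median of 0.06 (38.7% and 11.2% of all genes). No gene was beyond 1 log2 unit in either.

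The largest rises in DLD-1 5-FU res cells were those of MRPS9, MRPL52 and MRPL45. MRPS9 had 78, 80.8 and 73.8 TPM in DLD-1 5-FU res cells, against 55.4, 59.8 and 54.9 TPM in DLD-1 WT cells, with no overlap and a fold of 0.47 ± 0.05 (SE, adjusted p = 4.1e-05). MRPL45, the protein that holds the ribosome at the inner membrane, had 86.6, 90.6 and 84.5 TPM in DLD-1 5-FU res cells and 65, 63.9 and 67 TPM in DLD-1 OX res cells, against 69.3, 68.6 and 65 TPM in DLD-1 WT cells. Its folds were 0.39 ± 0.04 (SE, adjusted p = 1.8e-05) and -0.18 ± 0.04 (SE, adjusted p = 0.0035), the second at -0.05 and not called on plain TPM. In SW480 OX res cells MRPL45 was called lower at -0.23, but its fold was 0.15 on plain TPM and 0.06 with the length trend removed. MRPL24 fell in both DLD-1 populations, with 164, 143 and 133 TPM in DLD-1 5-FU res cells and 155, 126 and 137 TPM in DLD-1 OX res cells, against 179, 192 and 193 TPM in DLD-1 WT cells and folds of -0.34 ± 0.08 (SE, adjusted p = 0.0054) and -0.57 ± 0.08 (SE, adjusted p = 0.0002). MRPS27 had -0.41 ± 0.03 (SE, adjusted p = 5.9e-06) in DLD-1 OX res cells, beside -0.03 ± 0.03 (SE, adjusted p = 0.51) in 5-FU res cells.

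**Figure D3:**
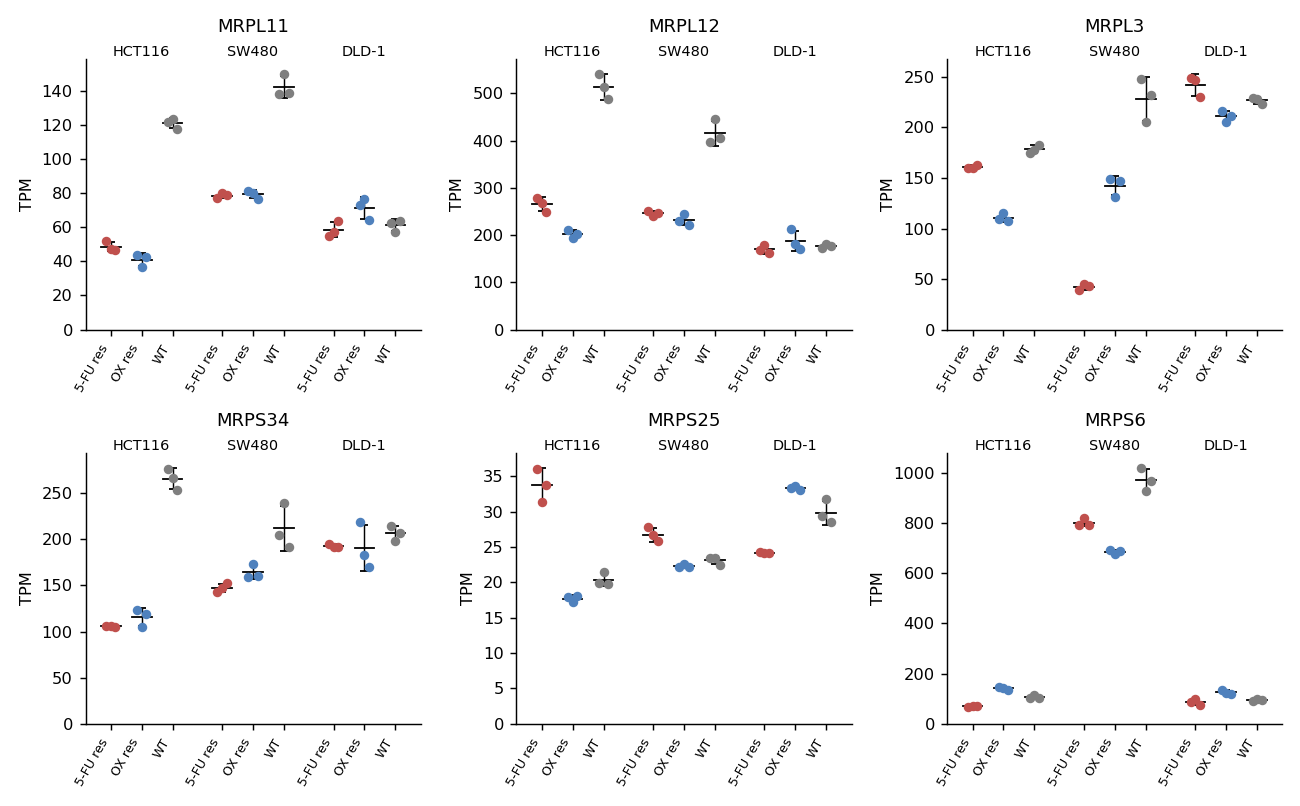
TPM of 6 of the 77 genes in every library, with the mean and SD of 3 libraries a group, in the order 5-FU res, OX res and WT within each line. MRPL11, MRPL12 and MRPS34 are lower in resistant HCT116 and SW480 cells, MRPL3 is lowest in SW480 5-FU res cells at 39.1 to 45.4 TPM, MRPS25 is raised in HCT116 5-FU res cells, and MRPS6 stands at 927 to 1016 TPM in SW480 WT cells.

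Several genes with roles outside the ribosome or with variants inside it were followed by name. MRPL41, which is reported to bind p53, had 79.8, 70.3 and 60.5 TPM in HCT116 5-FU res cells and 156, 128 and 142 TPM in HCT116 OX res cells, against 181, 154 and 158 TPM in HCT116 WT cells, with folds of -1.43 ± 0.10 (SE, adjusted p = 3.4e-07) and -0.78 ± 0.10 (SE, adjusted p = 3.1e-05), the second at -0.21 and not called on plain TPM. In SW480 MRPL41 was not called at -0.16 and -0.17, and it was 0.28 and 0.21 on plain TPM. MRPS30, which despite its name sits in the large subunit, had folds of -0.90 and -0.85 in HCT116 5-FU res and OX res cells. In SW480 it had -0.95 ± 0.08 (SE, adjusted p = 1.8e-06) in 5-FU res and -0.14 ± 0.08 (SE, adjusted p = 0.15) in OX res cells, the second at 0.24 on plain TPM. MRPL18, which helps to import 5S ribosomal RNA, was called lower in all but 1 of the 6 comparisons, with folds of -0.26 to -0.84 (not called in SW480 5-FU res cells on plain TPM, at -0.09), and higher in DLD-1 OX res cells at 0.22 ± 0.06 (SE, adjusted p = 0.0095). MRPL33, which has splice variants, was called lower in both resistant HCT116 and SW480 populations, but on plain TPM it was not called in OX res cells of HCT116, at -0.19, nor in 5-FU res cells of SW480, at 0.05. In DLD-1 its folds of 0.07 and 0.29 were not called, and the OX res fold was called on plain TPM at 0.42.

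The 3 paralogues of bacterial S18 were all lower in resistant HCT116 and SW480. MRPS18A, which sits in the large subunit, had folds of -1.11, -0.82, -0.79 and -0.58, first for 5-FU res and OX res cells of HCT116 and then for those of SW480. In that order MRPS18B, of the small subunit, had -0.59, -0.64, -0.64 and -0.61, and MRPS18C, at the bacterial position, had -1.01, -0.67, -0.93 and -0.67. Each of these values was called, but on plain TPM MRPS18B and MRPS18C were not in HCT116 OX res cells, at -0.06 and -0.10. In DLD-1 they parted. MRPS18A was higher in 5-FU res cells at 0.29 ± 0.05 (SE, adjusted p = 0.00046), MRPS18B lower in OX res cells at -0.38 ± 0.04 (SE, adjusted p = 2.3e-05), and MRPS18C higher in both, at 0.36 ± 0.07 (SE, adjusted p = 0.0011) and 0.20 ± 0.07 (SE, adjusted p = 0.027).

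Whether the response to a drug differed between the 3 lines was tested by an interaction term over all 27 libraries (limma F test). It was called for 73 of the 77 genes with 5-FU, where 83.0% of all 15801 genes were called, and for 75 with OX, where 82.9% were. MRPL18, MRPS33, MRPS35 and MRPS36 were not called with 5-FU, and MRPL54 and MRPS14 were not called with OX. 21 genes were called lower in one line and higher in another with 5-FU, where 32.8% of the 12114 genes tested in all 3 lines were, and 10 with OX, where 30.7% were. Among the genes called in opposite directions, those with the widest range over the lines with 5-FU were MRPL3, MRPS22, MRPS31 and MRPL48. The rise of MRPL3 in DLD-1 5-FU res cells was 0.12 (adjusted p = 0.013 from limma), and at 0.09 on plain TPM it was not called (adjusted p = 0.094). MRPS22 had 123, 119 and 115 TPM in SW480 5-FU res cells, against 283, 266 and 266 TPM in SW480 WT cells, a fold of -1.62 ± 0.05 (SE, adjusted p = 2.4e-09). In DLD-1 it had 116, 111 and 101 TPM in DLD-1 5-FU res cells, against 91, 91.3 and 92.4 TPM in DLD-1 WT cells, a fold of 0.27 ± 0.05 (SE, adjusted p = 0.00095). MRPS31 had folds of -1.56 ± 0.07 (SE, adjusted p = 2e-08) in SW480 and 0.25 ± 0.05 (SE, adjusted p = 0.0017) in DLD-1 5-FU res cells, and MRPL48 had -1.52 ± 0.07 (SE, adjusted p = 2.8e-08) and 0.21 ± 0.05 (SE, adjusted p = 0.0065).

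With OX the widest ranges among the genes called in opposite directions were those of MRPL14, MRPL13, MRPS33 and MRPS6. MRPL14 had 97.7, 104 and 97.8 TPM in HCT116 OX res cells, against 179.7, 180.3 and 179.6 TPM in HCT116 WT cells, a fold of -1.41 ± 0.06 (SE, adjusted p = 3.4e-09). In DLD-1 MRPL14 had 157, 149.9 and 143 TPM in DLD-1 OX res cells, against 113, 120.4 and 126 TPM in DLD-1 WT cells, a fold of 0.18 ± 0.06 (SE, adjusted p = 0.023). MRPL13 had folds of -1.40 ± 0.11 (SE, adjusted p = 4.9e-07) in HCT116 and 0.18 ± 0.05 (SE, adjusted p = 0.016) in DLD-1 OX res cells. MRPS33 had -1.04 ± 0.11 (SE, adjusted p = 1.1e-05) in SW480 and 0.12 ± 0.04 (SE, adjusted p = 0.043) in DLD-1 OX res cells. With replicate number as a block, the DLD-1 rise of MRPS33 was not called (adjusted p = 0.053 from limma). MRPS6, a small subunit protein, had 692, 674 and 686 TPM in SW480 OX res cells, against 1016, 927 and 966 TPM in SW480 WT cells, a fold of -0.88 ± 0.04 (SE, adjusted p = 7.4e-08). In DLD-1 OX res cells its fold was 0.26 ± 0.07 (SE, adjusted p = 0.0092). In HCT116 OX res cells MRPS6 was called lower at -0.17 relative to the median gene, but it was 0.40 on plain TPM, 0.27 with the length trend removed and 0.27 after quantile normalization.

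Set directly against each other, 5-FU res and OX res cells had medians near 0, at 0.06 in HCT116, -0.10 in SW480 and 0.09 in DLD-1. In HCT116, 31 genes were called higher in 5-FU res cells and 17 lower (38.7% and 36.4% of all genes), while plain TPM gave 10 higher and 49 lower (20.4% and 56.7%). MRPS25 was the largest rise there, at 1.25 ± 0.06 (SE, adjusted p = 7.3e-09), followed by MRPL24 at 0.92 ± 0.06 (SE, adjusted p = 1.7e-07). MRPS6, at -0.65 ± 0.07 (SE, adjusted p = 6e-06), and MRPL41, at -0.65 ± 0.10 (SE, adjusted p = 0.00015), were the largest falls. In SW480, 11 were higher and 32 lower (31.6% and 33.6%; 16 and 29 on plain TPM, where 34.3% and 27.3% of all genes were called), with MRPL3 at -1.78 ± 0.06 (SE, adjusted p = 6.2e-09) and MRPL53 at -1.07 ± 0.11 (SE, adjusted p = 1e-05) as the largest falls and MRPS33 and MRPL34 as the largest rises. In DLD-1, 29 were higher and 14 lower (31.2% and 31.7%), and plain TPM gave 15 and 27 (18.3% and 44.6%). MRPS9 and MRPL45 were the largest rises in DLD-1, and MRPL18, at -0.48 ± 0.06 (SE, adjusted p = 3.2e-05), and MRPS6 were the largest falls. The doses of the 2 drugs differed.

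Among WT cells, HCT116 and SW480 were close to each other and DLD-1 was lower. HCT116 WT against SW480 WT gave 29 genes higher and 33 lower (38.2% each of 15801 genes), with a median of -0.10. HCT116 WT against DLD-1 WT gave 65 higher and 5 lower (43.1% and 39.0%), with a median of 0.75, and SW480 WT against DLD-1 WT gave 62 higher and 6 lower (42.5% and 39.5%), with a median of 0.66. On plain TPM the splits were 49 higher and 15 lower against DLD-1 for HCT116 (25.8% and 53.2% of all genes) and 47 and 17 for SW480 (27.1% and 53.8%). With the length trend removed the medians were 0.38 and 0.33. DLD-1 libraries carry library names from another run of numbers than those of HCT116 and SW480, so that the line and any difference between these sets of libraries cannot be told apart in them.

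A few genes differed most between the WT lines. MRPS6 had 1016, 927 and 966 TPM in SW480 WT cells, against 91.7, 100.4 and 95.5 TPM in DLD-1 WT cells, a fold of 3.71 ± 0.06 (SE, adjusted p = 2.2e-23). HCT116 WT cells had 102, 115 and 104 TPM of MRPS6, a fold of -3.18 ± 0.06 (SE, adjusted p = 5.1e-22) over SW480 WT cells. Its annotated exons overlap those of another gene on the same strand, so part of this signal cannot be told apart from that gene's. MRPS21 had 159.9, 166 and 152 TPM in HCT116 WT cells, against 35.3, 39.8 and 38.3 TPM in SW480 WT cells and 39.9, 45.4 and 44.3 TPM in DLD-1 WT cells. MRPS22 was highest in SW480 WT cells, with 272 ± 9.67 TPM, against 91.6 ± 0.73 TPM in DLD-1 WT cells (SD, n = 3 each). MRPS23 had 207, 205 and 206 TPM in HCT116 WT cells, against 63.2, 56 and 60.0 TPM in DLD-1 WT cells. In each of these genes the named WT groups did not overlap.

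Neighbouring genes were set beside some of the falls, which were picked after their values were seen. Neighbours were the tested genes within 2 Mb, and the median of their folds in the same comparison was taken. For MRPL3 in SW480 5-FU res cells the 15 neighbours had a median of -1.08, beside its own -2.83. MRPL47 had -1.61 beside -0.89, MRPS22 -1.62 beside -0.60, MRPS31 -1.56 beside -0.66 and MRPS14 -1.18 beside -1.03. Other falls in these cells stood apart from their surroundings: MRPL24 had -1.95 beside -0.10, MRPL1 -1.64 beside -0.08 and MRPL48 -1.52 beside 0.05. Over the 77 genes the fold and its neighbours' median correlated with r = 0.65 and 0.60 in 5-FU res and OX res cells of SW480, 0.36 and 0.34 in HCT116 5-FU res and OX res cells, and 0.25 and 0.13 in DLD-1 5-FU res and OX res cells. The fold was below its neighbours' median for 76 and 77 of the 77 genes in 5-FU res and OX res cells of SW480. The number was 76 in both resistant populations of HCT116, and 40 and 50 in those of DLD-1. The median difference from the neighbours was -0.75 and -0.59 in SW480, -0.86 and -0.88 in HCT116, and -0.01 and -0.07 in DLD-1. The share of all genes below their neighbours was not counted. These are descriptions across genes of the same libraries. MRPL3, MRPS22 and MRPL47 lie on chromosome 3 (hg19), MRPL3 at chr3:131181056-131221827 and MRPS22 at chr3:138724648-139079339. Exons of another gene overlap MRPL3, MRPL47 and MRPS22 on the opposite strand in the annotation, and no source used here says whether counting used strand.

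The other proteins of mitochondrial translation were read from lists. The 6 mitoribosome proteins with other symbols (AURKAIP1, CHCHD1, DAP3, GADD45GIP1, ICT1 and PTCD3) were all lower in both resistant HCT116 populations and in 5-FU res cells of SW480, with medians of -1.29, -1.24 and -0.94, and 5 of 6 were lower in SW480 OX res cells with a median of -0.72. ICT1, a peptidyl-tRNA hydrolase built into the large subunit, had -1.51 ± 0.07 in HCT116 5-FU res cells and -1.36 ± 0.07 in HCT116 OX res cells (SE, adjusted p = 1.3e-08 and 9.5e-09 from limma). In DLD-1 5-FU res cells 1 was higher and 2 lower, and none was called in DLD-1 OX res cells. Over the 25 assembly and rRNA modification factors, 17 and 19 were lower in 5-FU res and OX res cells of HCT116 and 17 and 18 in those of SW480, with medians of -0.54, -0.58, -0.33 and -0.39, and 1, 3, 4 and 2 were higher in that order. Over all genes 39.1%, 38.2%, 34.7% and 34.2% were lower and 36.0%, 39.5%, 34.5% and 33.0% higher. Of the 17 translation factors, 13, 10, 13 and 11 were lower and 2, 2, 1 and 2 higher, and of the 20 mitochondrial aminoacyl-tRNA synthetases 14, 16, 14 and 14 were lower and 2, 0, 2 and 2 higher. Of the 19 tested genes of mitochondrial transcription and DNA maintenance, 10, 16, 11 and 9 were lower and 4, 1, 2 and 5 higher. On plain TPM the direction of these lists depended on the comparison: the medians were -0.33, -0.01, 0.11 and -0.02 for assembly factors, -0.17, 0.04, -0.34 and 0.03 for translation factors, -0.07, 0.12, 0.04 and 0.03 for synthetases, and 0.06, 0.04, 0.15 and 0.19 for transcription and DNA maintenance.

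The 75 nuclear-encoded respiratory chain subunits had 73, 73, 68 and 73 genes lower in that order and none higher, with medians of -0.92, -0.94, -0.64 and -0.58. On plain TPM 73, 57, 41 and 45 of them were lower and 1, 4, 15 and 5 higher. In DLD-1 10 were higher and 23 lower in 5-FU res cells, while OX res cells had 4 higher and 42 lower, with medians of -0.03 and -0.17, where 24.9% and 25.4% of all genes were higher and lower with 5-FU and 24.2% and 22.2% with OX. The 77 tested cytosolic ribosomal protein genes had other values. In HCT116 5-FU res cells 7 were higher and 21 lower (36.0% and 39.1% of all genes) with a median of -0.11, and with the length trend removed 48 were higher and 5 lower with a median of 0.25. In HCT116 OX res cells 1 was higher and 75 lower with a median of -1.43. In SW480, 76 and 75 were lower in the 5-FU res and OX res populations, with medians of -1.06 and -0.81. On plain TPM 32 cytosolic genes were higher and 9 lower in HCT116 5-FU res cells, with a median of 0.10, and the other medians were -0.86, -0.63 and -0.44 in OX res cells of HCT116 and in both resistant SW480 populations. In DLD-1 OX res cells 74 cytosolic genes were lower with a median of -0.53, beside -0.07 for the mitochondrial ones. The difference between the lists was not tested.

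Within the 77 genes, MRPL and MRPS genes had medians of -0.96 and -0.75 in 5-FU res cells and -0.90 and -0.85 in OX res cells of HCT116. In SW480 they had -0.76 and -0.79 in 5-FU res cells, and -0.66 and -0.67 in OX res cells. The 48 genes with a bacterial counterpart and the 29 mitochondria-specific ones had -0.99 and -0.76, -0.92 and -0.81, -0.81 and -0.67, and -0.71 and -0.53 in the same order. All 48 MRPL genes were lower in both resistant HCT116 populations, and 44 and 45 of them in SW480 5-FU res and OX res cells.

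**Figure D4:**
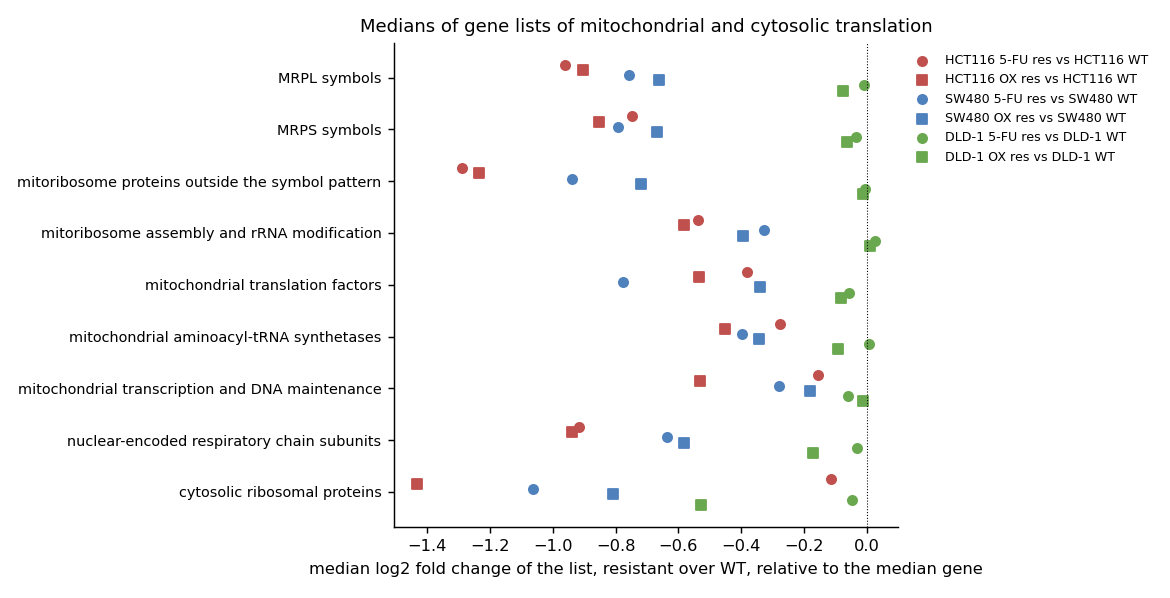
Median log2 fold change of 9 gene lists, resistant over WT and relative to the median gene, with circles for 5-FU res, squares for OX res and a colour for each line. MRPL and MRPS genes lie between -0.96 and -0.66 in HCT116 and SW480 and near 0 in DLD-1, while cytosolic ribosomal proteins lie at -0.11 in HCT116 5-FU res cells and at -1.43 in HCT116 OX res cells.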

How the data were processed

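Poly(A) RNA of 27 libraries was sequenced as single reads of 100 bases on a DNBSEQ-G400. Per the submitters' processing notes the authors aligned reads to hg19 with TopHat2 2.1.1 (Bowtie2 2.2.8, SAMtools 0.1.18) and deposited FPKM, fragments scaled by transcript length and library total, made with Cufflinks or Cuffdiff 2.2.1. The files hold no counts, so depth is unknown and no counting error is given. The methods name a TruSeq stranded mRNA kit for library preparation. The annotation, and whether counting used strand, could not be read from any source used here.

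TPM were obtained by scaling each library's FPKM to a common sum. Genes at 1 TPM or more in 3 or more of a line's libraries were tested on log2(TPM + 1). The added 1 understates the change of low genes. Each library was centred on its median gene. The test was limma 3.58.1 (R 4.3.3, lmFit, eBayes with trend). Each line's 9 libraries were fitted together, and all 27 for WT lines and for the interaction of drug and line. P-values were adjusted by Benjamini-Hochberg over all genes. The scripts were tested on simulated data with known changes. Alternatives were plain TPM, quantile normalization, FPKM as deposited, a pseudocount of 0.1, other filters, removal of a lowess trend (span 0.3) on transcript length, eBayes without trend, only the groups compared, a replicate block and each library left out.

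Members and lists were chosen with earlier results of these data known. Named were the 3 largest rises and falls of each comparison with WT, the genes called alike in all 6, those beyond 1 log2 unit, the widest ranges over lines, genes with roles outside or variants within the ribosome, stalk, anchor and decoding proteins, the MRPS18 paralogues, the 3 highest and lowest levels, and the 2 largest rises and falls of the other comparisons. 68 members met this rule, and those not described are counted. Exons of 31 members overlap another gene (14 on the same strand, 22 antisense), and their values are uncertain to that extent. These include MRPL12, MRPS25, MRPS6, MRPL46 and MRPL30 (same strand) and MRPL20, MRPL3, MRPS34, MRPS22, MRPL47 and MRPS11 (antisense).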

Additional observations from a re-analysis of the deposited data

Results flagged for a closer look

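The response to 5-FU differed between the lines for 73 of the 77 genes and the response to OX for 75 (limma interaction F test over 27 libraries, adjusted over all genes), where 83.0% and 82.9% of all genes were called. For 5-FU the adjusted p of the interaction was 4.3e-19 for MRPL3, 2.9e-15 for MRPS22, 2.9e-12 for MRPS31 and 1.1e-11 for MRPL48. For OX it was 1.7e-10 for MRPL14, 1.6e-08 for MRPL13, 1.2e-06 for MRPS33 and 4.4e-10 for MRPS6. These 8 genes were called lower in one line and higher in another with the same drug, as were 32.8% of all genes tested in the 3 lines with 5-FU and 30.7% with OX. The rise of MRPS33 in DLD-1 OX res cells was not called with a replicate block.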

How the results depend on the processing

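Each alternative changed one setting, with exceptions. Removal of the length trend also left out genes with no matched length (13562 of 14010 genes were kept in HCT116, 13598 of 14039 in SW480, 13047 of 13467 in DLD-1 and 15186 of 15801 over all lines). Leaving out a library reapplied the filter to fewer libraries, which also changed the genes tested. Without HCT116 OX res replicate 3, for example, 13568 genes were tested. No cause of a difference was tested. The counts of genes called lower in HCT116 and SW480 stayed within 1.5 times under every alternative, and the medians there stayed below 0. The counts beyond 1 log2 unit down did not stay so. They were 30 and 30 in HCT116 and 23 and 10 in SW480 (5-FU res, then OX res). Over all genes, 951, 1756, 1045 and 540 were beyond 1 log2 unit down in that order. On plain TPM the counts were 13, 7, 9 and 1 of the 77, against 535, 676, 400 and 171 of all genes. After quantile normalization they were 6, 10, 16 and 1, against 739, 1318, 937 and 547 of all genes. With the length trend removed they were 9, 16, 17 and 1, against 642, 1421, 885 and 389 of all genes. All genes tested numbered 14010 in HCT116 and 14039 in SW480, and 13562 and 13598 with the length trend removed. On plain TPM, the number of genes higher was 2 in 5-FU res cells of HCT116, 5 in OX res cells of HCT116, 7 in 5-FU res cells of SW480, 5 in OX res cells of SW480, 24 in OX res cells of DLD-1, 10 in 5-FU res against OX res cells of HCT116 and 15 in 5-FU res against OX res cells of DLD-1. The median log2 fold change was -0.73 in 5-FU res cells of HCT116, -0.30 in OX res cells of HCT116, -0.36 in 5-FU res cells of SW480, -0.29 in OX res cells of SW480, -0.041 in 5-FU res cells of DLD-1, 0.061 in OX res cells of DLD-1, -0.30 in 5-FU res against OX res cells of HCT116, -0.044 in 5-FU res against OX res cells of SW480, -0.067 in 5-FU res against OX res cells of DLD-1, 0.37 in HCT116 against DLD-1 WT cells and 0.28 in SW480 against DLD-1 WT cells. MRPS6 had 0.40 in OX res cells of HCT116. MRPL10 had 0.22 in 5-FU res cells of SW480 and 0.095 in OX res cells of SW480. MRPL33 had 0.049 in 5-FU res cells of SW480. MRPL41 had 0.28 in 5-FU res cells of SW480 and 0.21 in OX res cells of SW480. MRPS35 had 0.011 in 5-FU res cells of SW480 and 0.023 in OX res cells of SW480. MRPL45 had 0.15 in OX res cells of SW480. MRPS30 had 0.24 in OX res cells of SW480. Genes called lower numbered 8 in OX res cells of DLD-1, 49 in 5-FU res against OX res cells of HCT116, 27 in 5-FU res against OX res cells of DLD-1, 15 in HCT116 against DLD-1 WT cells and 17 in SW480 against DLD-1 WT cells. MRPL12 had 0.079 in OX res cells of DLD-1. MRPS18A had 0.052 in OX res cells of DLD-1. After quantile normalization, the number of genes higher was 2 in 5-FU res cells of HCT116, 2 in OX res cells of HCT116, 3 in 5-FU res cells of SW480 and 1 in OX res cells of SW480. The median log2 fold change was -0.52 in 5-FU res cells of HCT116, -0.60 in OX res cells of HCT116, -0.52 in 5-FU res cells of SW480, -0.45 in OX res cells of SW480, -0.078 in 5-FU res against OX res cells of SW480, 0.49 in HCT116 against DLD-1 WT cells and 0.37 in SW480 against DLD-1 WT cells. MRPL3 had 0.087 in 5-FU res cells of HCT116. MRPS35 had 0.0062 in 5-FU res cells of HCT116. MRPS6 had 0.27 in OX res cells of HCT116. MRPL10 had 0.0074 in 5-FU res cells of SW480. MRPL33 had 0.035 in 5-FU res cells of SW480. MRPL41 had 0.18 in 5-FU res cells of SW480 and 0.098 in OX res cells of SW480. MRPL45 had 0.0089 in OX res cells of SW480. MRPS12 had -0.0023 in OX res cells of DLD-1. Genes called lower numbered 8 in HCT116 against DLD-1 WT cells and 11 in SW480 against DLD-1 WT cells. With the length trend removed, the number of genes higher was 2 in 5-FU res cells of HCT116, 2 in OX res cells of HCT116, 2 in 5-FU res cells of SW480 and 2 in OX res cells of SW480. The median log2 fold change was -0.58 in 5-FU res cells of HCT116, -0.70 in OX res cells of HCT116, -0.59 in 5-FU res cells of SW480, -0.40 in OX res cells of SW480, -0.18 in 5-FU res against OX res cells of SW480, 0.38 in HCT116 against DLD-1 WT cells and 0.33 in SW480 against DLD-1 WT cells. MRPS6 had 0.27 in OX res cells of HCT116. MRPL41 had 0.14 in 5-FU res cells of SW480, 0.23 in OX res cells of SW480 and 0.032 in 5-FU res cells of DLD-1. MRPL45 had 0.060 in OX res cells of SW480. MRPS30 had 0.14 in OX res cells of SW480. MRPL19 had 0.18 in HCT116 against DLD-1 WT cells. Genes called lower numbered 14 in SW480 against DLD-1 WT cells. MRPL42 had 0.14 in SW480 against DLD-1 WT cells. With no filter, the median log2 fold change was -0.83 in 5-FU res cells of HCT116, -0.59 in OX res cells of HCT116, -0.58 in 5-FU res cells of SW480, -0.46 in OX res cells of SW480, -0.0061 in OX res cells of DLD-1, -0.11 in 5-FU res against OX res cells of HCT116, 0.0068 in 5-FU res against OX res cells of DLD-1, 0.47 in HCT116 against DLD-1 WT cells and 0.39 in SW480 against DLD-1 WT cells. The number of genes higher was 1 in OX res cells of HCT116, 2 in 5-FU res cells of SW480, 1 in OX res cells of SW480 and 16 in 5-FU res against OX res cells of HCT116. MRPS6 had 0.11 in OX res cells of HCT116. MRPL41 had 0.059 in 5-FU res cells of SW480 and 0.034 in OX res cells of SW480. MRPS30 had 0.063 in OX res cells of SW480. Genes called lower numbered 13 in OX res cells of DLD-1, 35 in 5-FU res against OX res cells of HCT116, 13 in HCT116 against DLD-1 WT cells and 15 in SW480 against DLD-1 WT cells. MRPL12 had 0.011 in OX res cells of DLD-1. With only genes at a mean of 5 TPM or above, the median log2 fold change was -0.88 in 5-FU res cells of HCT116 and -0.80 in OX res cells of HCT116. On FPKM as deposited, the number of genes higher was 0 in 5-FU res cells of SW480. The median log2 fold change was 0.83 in HCT116 against DLD-1 WT cells and 0.77 in SW480 against DLD-1 WT cells. Genes called lower numbered 3 in SW480 against DLD-1 WT cells. With a pseudocount of 0.1, the number of genes higher was 0 in 5-FU res cells of SW480. The median log2 fold change was 0.82 in HCT116 against DLD-1 WT cells and 0.74 in SW480 against DLD-1 WT cells. Genes called lower numbered 3 in SW480 against DLD-1 WT cells. With eBayes without trend, the number of genes higher was 0 in 5-FU res cells of SW480. With only the groups compared, the number of genes higher was 0 in 5-FU res cells of SW480. The median log2 fold change was 0.69 in HCT116 against DLD-1 WT cells. Relative to the median gene, the ratio of summed levels to WT was 0.543 and 0.524 in 5-FU res and OX res cells of HCT116, 0.583 and 0.608 in those of SW480, and 0.950 in OX res cells of DLD-1. Over genes under 1000 TPM it was 0.652 and 0.626 in HCT116, 0.661 and 0.698 in SW480, and 0.947 in OX res cells of DLD-1. Leaving out each library in turn gave ranges of -0.90 to -0.80 for the median log2 fold change in OX res cells of HCT116, 0 to 1 for the genes higher in 5-FU res cells of SW480, 0 to 1 for the genes higher in OX res cells of SW480, -0.031 to 0.0067 for the median log2 fold change in 5-FU res cells of DLD-1, -0.12 to 0.015 for MRPL11 in 5-FU res cells of DLD-1, -0.029 to 0.13 for MRPL33 in 5-FU res cells of DLD-1, -0.086 to 0.083 for MRPL41 in 5-FU res cells of DLD-1, 5 to 10 for the genes higher in OX res cells of DLD-1, -0.14 to 0.0023 for MRPL12 in OX res cells of DLD-1, -0.014 to 0.050 for MRPS12 in OX res cells of DLD-1, 7 to 9 for the genes higher in 5-FU res against OX res cells of SW480, -0.13 to -0.076 for the median log2 fold change in 5-FU res against OX res cells of SW480 and 0.047 to 0.11 for the median log2 fold change in 5-FU res against OX res cells of DLD-1. The number of genes higher in OX res cells of DLD-1 was 5 without WT replicate 2 and 6 without OX res replicate 1, and that in 5-FU res against OX res cells of SW480 was 7 without OX res replicate 1. Deviations of same-numbered libraries from their group means correlated weakly (r between -0.20 and 0.22), and the main fits used no pairing. In HCT116 OX res against WT cells the same-numbered pairs had 0.093, 0.22 and 0.17, and the other pairs -0.19 to -0.0033. Whether the numbers pair samples cannot be told from these values. The replicate block turned 1 named call, MRPS33 in OX res cells of DLD-1 (adjusted p = 0.053 from limma), and no count or median. Depth is unknown, and the differences in library sums of FPKM between groups limit every level set across them.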
